A study of Mus musculus with 48 samples.

Results

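Kidney cells make ATP mainly by oxidative phosphorylation, and the nuclear genes for the 5 complexes of that pathway are described here at the level of mRNA, ribosome footprints and translation efficiency (TE) around the day. Members were all genes whose symbol starts with Nduf followed by a, b, c, s or v and a digit (complex I), is Sdha, Sdhb, Sdhc or Sdhd (complex II), or starts with Uqcr (complex III), Cox4 to Cox8 (complex IV) or Atp5 (complex V). A median of at least 0.5 RPKM (reads scaled to the length of the coding sequence and to the size of the library) was required in both assays. Of the 11863 genes that met this minimum, 77 were members, 37 of them in complex I, 4 in complex II, 8 in complex III, 12 in complex IV and 16 in complex V. Among the 12423 genes listed for both assays, 77 matched the symbols and all of these passed the minimum. None of them had an RPKM of 0 in any library.

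The samples were kidneys of male C57BL/6JRj mice, 11 to 12 weeks old, kept in 12 h of light and 12 h of darkness. Zeitgeber time 0 (ZT0) is lights-on and ZT12 is lights-off, and 12 timepoints spaced 2 h apart, from ZT0 to ZT22, were sampled with 2 pools each. A pool joined the lysates of 2 mice, so that single animals cannot be told apart. From each of the 24 pools came 1 RNA-seq library and 1 RPF-seq library, the latter sequencing the mRNA fragments that ribosomes protect from RNase. All animals were untreated and of 1 genotype, and the comparison is therefore between times of day, between RNA and footprints of the same pool, and between members.

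Complex I takes electrons from NADH and complex II takes them from succinate, both pass them through ubiquinone to complex III, and cytochrome c carries them on to complex IV, which reduces oxygen. Complexes I, III and IV pump protons across the inner mitochondrial membrane, and complex V, the ATP synthase, lets them flow back through a ring of c subunits that turns a shaft inside its catalytic head. Complex II is encoded by nuclear genes only, whereas the other complexes combine subunits made on cytosolic ribosomes with a few made on mitochondrial ribosomes. In the kidney the proximal tubule and the thick ascending limb are rich in mitochondria and spend most of this ATP on sodium transport.

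The proximal tubule markers were all listed, with a summed level of 43873 to 71354 RPKM in RNA. Thick ascending limb markers summed to 3293 to 4558 RPKM, whereas none of 4 brown fat, 5 skeletal muscle, 4 adrenal and 3 lymph node markers was listed in both assays. Red blood cell markers varied most between libraries, from 54.4 to 373 RPKM in RNA, and liver markers summed to 127 to 464 RPKM. In bulk tissue, a change in the number of cells of a type and a change of RNA per cell cannot be told apart. Steps between the lowest values gave 9861000 to 33574000 coding-sequence reads (rounded to 1000) per RNA library and 15566000 to 35010000 per RPF library. The fewest reads of any member in a library were 6 in RNA, for Ndufa4l2, and 34 in footprints. The 6 RNA libraries of ZT18 to ZT22 were shallower (9861000 to 13721000 reads, median 10558000) than the other 18 (12464000 to 33574000 reads, median 17609000).

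The subunit c genes Atp5g1, Atp5g2 and Atp5g3 encode the same mature protein behind different import signals, so that their separate daily profiles, given further on, belong to 1 product. The 250 bases before the RefSeq start of each gene (GRCm38.p6, all on the minus strand) are shown because the RNA of Atp5g1 and Atp5g2 passed the test for a daily rhythm and that of Atp5g3 did not. Capitals mark matches to any of 4 motifs searched on both strands: CATGCGC (the core of nuclear respiratory factor 1 sites), CCGGAAG (the core of ETS factor sites), CACGTG (the E-box bound by clock proteins) and TTANGTAA (the D-box). In Atp5g2 the capitals are a pair of overlapping CATGCGC matches, 1 on each strand, and in Atp5g1 and Atp5g3 they are an E-box.
Atp5g1, chr11:96075632-96075881: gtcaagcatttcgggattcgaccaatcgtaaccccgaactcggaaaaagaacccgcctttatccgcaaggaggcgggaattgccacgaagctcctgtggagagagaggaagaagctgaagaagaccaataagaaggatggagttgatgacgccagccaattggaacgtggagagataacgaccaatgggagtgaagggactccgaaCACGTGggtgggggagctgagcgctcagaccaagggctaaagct
Atp5g2, chr15:102671048-102671297: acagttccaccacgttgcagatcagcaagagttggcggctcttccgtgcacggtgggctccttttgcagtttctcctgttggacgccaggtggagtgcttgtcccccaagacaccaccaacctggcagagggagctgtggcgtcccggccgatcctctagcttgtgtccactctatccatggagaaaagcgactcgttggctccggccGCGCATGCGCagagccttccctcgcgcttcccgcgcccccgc
Atp5g3, chr2:73911327-73911576: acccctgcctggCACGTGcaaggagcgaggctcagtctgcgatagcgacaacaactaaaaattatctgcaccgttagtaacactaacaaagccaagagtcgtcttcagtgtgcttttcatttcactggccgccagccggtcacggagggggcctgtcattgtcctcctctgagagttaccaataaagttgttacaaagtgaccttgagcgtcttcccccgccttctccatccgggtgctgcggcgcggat
The Atp5g2 window lies inside the longer GENCODE gene model (chr15:102662864-102672352). RefSeq promoters were found for 63 members by symbol. CATGCGC stood in the 250 bases of 10 of the 63 (15.9%), against 6.44% of 9337 tested genes and 3.68% of all 27025 genes of the table. CCGGAAG stood in 12 (19.0%), against 15.5% of tested genes and 7.83% of all genes. An E-box stood in 5 (7.94%), against 10.1% and 6.86%, and a D-box in 2 (3.17%), against 1.69% and 2.44%.

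The members were among the most abundant messages of the kidney, with a median RNA level of 411 RPKM against 16.5 RPKM over all tested genes, and a median footprint level of 586 RPKM against 13.7 RPKM. Footprints ranked the complexes as RNA did. The median member of complex I had 275 RPKM in RNA and 404 RPKM in footprints, that of complex II 466 and 763 RPKM, that of complex III 530 and 764 RPKM, that of complex V 647 and 933 RPKM and that of complex IV 763 and 1473 RPKM. Within a complex the levels were far from equal. The highest and lowest members differed 2.46-fold in footprints in complex II and 2.52-fold in complex III, but 146-fold in complex V, 160-fold in complex I and 283-fold in complex IV, where forms that are scarce in kidney set the lower end.

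In complex V, Atp5b and Atp5a1, which form the catalytic head, had the most RNA of all members. Atp5b gave 2123, 2300 and 2510 RPKM as the lowest, median and highest of 24 RNA libraries, and 2630, 2773 and 3094 RPKM in footprints. Atp5a1 gave 1565, 1855 and 2399 RPKM in RNA and 1849, 2130 and 2729 RPKM in footprints. The ratio of Atp5b to Atp5a1 was 1.23 ± 0.10 in RNA and 1.31 ± 0.09 in footprints (SD, n = 24 pools). In the enzyme the α and β subunits are present in equal number, and in more copies than the single γ subunit encoded by Atp5c1. Atp5c1 had 552, 671 and 798 RPKM in RNA, and Atp5a1 exceeded it 2.82 ± 0.38-fold in RNA and 2.10 ± 0.27-fold in footprints, while Atp5b exceeded it 3.44 ± 0.28-fold and 2.74 ± 0.28-fold. Atp5e, the ε subunit of the same shaft, had 694, 909 and 1111 RPKM in RNA and 1.73 ± 0.25 times the footprints of Atp5c1. The 3 c-subunit genes together had 2.73 ± 0.25 times the RNA of Atp5c1 and 3.98 ± 0.41 times its footprints. At the low end stood Atp5s, coupling factor B, with 11.2, 14.2 and 19.5 RPKM in RNA.

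In complex I the flavoprotein subunit Ndufv1, which binds NADH, had 296, 336 and 417 RPKM in RNA and 385, 409 and 495 RPKM in footprints. Ndufs1, the largest iron-sulphur subunit, had 183, 217 and 261 RPKM in RNA and 284, 306 and 334 RPKM in footprints, 0.74 ± 0.05 of the footprints of Ndufv1. Ndufa4 had the most footprints in this group, with 1038, 1542 and 1885 RPKM. It is placed here by its symbol, although the protein was later assigned to complex IV. In complex II, Sdha and Sdhb, the flavoprotein and the iron-sulphur subunit, had nearly equal footprints, with a ratio of 1.01 ± 0.07. The membrane anchors did not, since Sdhc had 2.47 ± 0.21 times the footprints of Sdhd against 1.69 ± 0.17 times its RNA. In complex III the core proteins Uqcrc1 and Uqcrc2 had a footprint ratio of 0.97 ± 0.10, with RNA at 1.24 ± 0.19. The Rieske protein Uqcrfs1 had 710, 760 and 885 RPKM in footprints, and the hinge protein Uqcrh had the most of the complex, 805, 1475 and 2541 RPKM. In complex IV, Cox6c had the highest footprint level of all 77 members, 3336, 3989 and 4579 RPKM, from an RNA level of 1249, 1401 and 1687 RPKM. Cox5a and Cox5b, a pair of matrix-facing subunits, stood at 0.51 ± 0.05 to 1 in RNA and 0.87 ± 0.13 to 1 in footprints.

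Several subunits exist in alternative forms, and kidney used them unequally. Of the c-subunit messages Atp5g3 made up 60.8 ± 4.7%, Atp5g1 28.7 ± 3.0% and Atp5g2 10.5 ± 2.3% in RNA. Of the c-subunit footprints they made up 76.0 ± 1.6%, 15.6 ± 1.3% and 8.37 ± 0.80%. Cox7a1, the heart and muscle form, gave 5.25 ± 0.77% of the RNA and 3.28 ± 0.73% of the footprints of Cox7a1 and Cox7a2 together, with 29.2, 39.2 and 56.1 RPKM in RNA. Cox6b2, known as the testis form, had 2.06, 4.18 and 7.18 RPKM in RNA and 8.88, 14.3 and 18.4 RPKM in footprints, which was 0.64 ± 0.14% of the Cox6b1 and Cox6b2 footprints. Ndufa4l2, induced by hypoxia, had 2.18, 3.66 and 5.80 RPKM in RNA and 6.29, 8.93 and 15.3 RPKM in footprints, 0.62 ± 0.11% of the sum with Ndufa4. Cox6a1 (712, 1217 and 1427 RPKM in RNA), Cox7b (519, 707 and 872 RPKM) and Cox8a (840, 1088 and 1453 RPKM) were the forms of their subunits measured in both assays. Cox4i1, Cox4i2, Cox6a2, Cox7b2, Cox8b, Cox8c and Atp5d were not analysed here.

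As a level, TE was taken as the ratio of footprint to RNA RPKM in a pool, relative to the median gene of that pool, because both assays were scaled separately. 46 of the 77 members (59.7%) had a TE at least 1.5-fold above the median gene at an adjusted p under 0.05 in limma's test, against 20.6% of all tested genes. None of the members was at least 1.5-fold below it, against 26.0% of all genes. Of the members, 74 had a mean TE above the median gene, and the median member stood 1.57-fold above it, against 1.01-fold for the median of all tested genes. The members called above were all 4 of complex II, 10 of 12 in complex IV, 10 of 16 in complex V, 4 of 8 in complex III and 18 of 37 in complex I. At a limit of 2-fold the count was 17 of 77, against 727 of 11863 tested genes. The lowest TE of a member was 0.725 of the median gene, so that none could pass the lower limit at any p.

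The highest TE of a member was that of Uqcrq (chr11:53427922-53430831, minus strand, GRCm38), a small subunit of complex III that contacts ubiquinone. It had 84.5, 128 and 294 RPKM in RNA but 632, 727 and 937 RPKM in footprints, and its TE was 5.87-fold above the median gene (2.55 ± 0.10, log2 ± SE, adjusted p = 6.5e-19, limma). Uqcrq thus had the lowest RNA level of complex III and a footprint level inside the range of the other 7 subunits. Cox6b2 followed at 3.42-fold, then Atp5g3 at 2.95-fold, Cox6c at 2.90-fold and Ndufa1, an accessory subunit of the membrane arm of complex I, at 2.82-fold. Sdhc had the highest TE of complex II, 2.61-fold, and Sdhb, Uqcr10 and Uqcrc1 stood at the lower end of complexes II and III. The 3 members whose mean TE lay below the median gene were Cox7a2l, an assembly factor of respiratory supercomplexes, at 0.725-fold, Ndufa6, a subunit of complex I, at 0.742-fold, and Atp5k, subunit e at the dimer interface of complex V, at 0.948-fold. Of these, Atp5k did not pass the test (adjusted p = 0.12, limma).

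**Figure D1:**
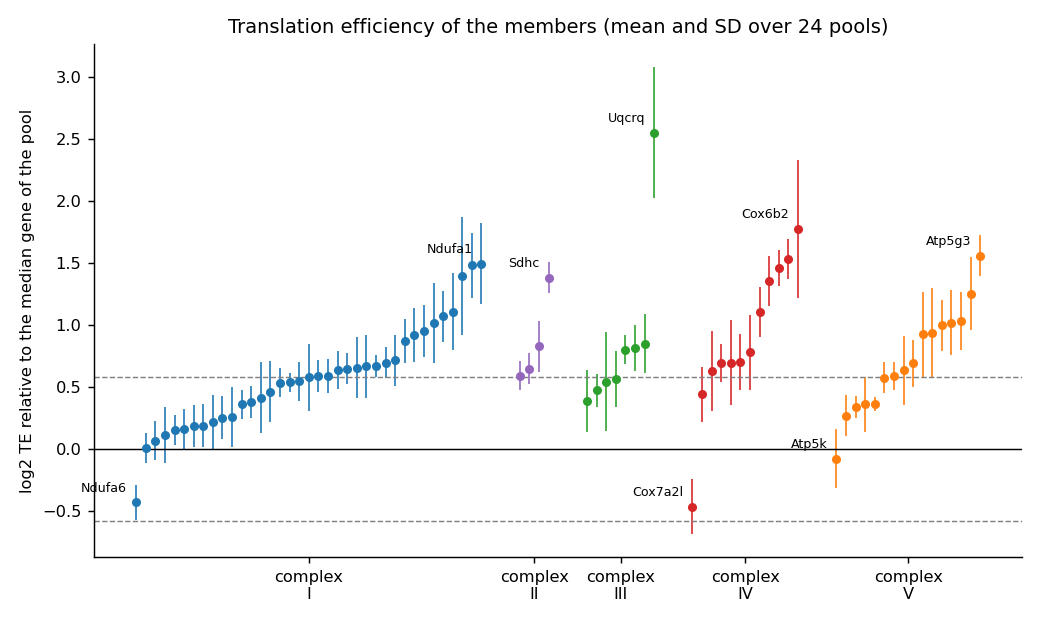
Each point is the mean log2 TE of 1 member relative to the median gene of the pool, with the SD over 24 pools as a bar, ordered by value within complexes I to V, and dashed lines mark the 1.5-fold limits. Of the 77 points 74 lie above the median gene, with Uqcrq at 2.55 the highest and Cox7a2l and Ndufa6 the lowest.

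Short coding sequences had higher TE among the members and among all genes. The 46 members of up to 450 nt had a median TE of 1.67, and 65.2% of them were called above the median gene, against 1.41 and 44.1% for the 685 other genes of that length. The 31 longer members had a median TE of 1.504 with 51.6% called, against 0.984 and 18.9% for 11025 other genes. Spearman's rho of TE with coding length was -0.36 across members and -0.41 across all tested genes, which are not independent replicates. The part of length in the TE of the members was not tested further. Across members, mean RNA and mean footprints had a rho of 0.90.

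How unequal the members of a complex were differed between complexes and with the measure of spread. The spread among members, as the SD of log2 values within a pool, averaged 1.23 in RNA and 1.11 in footprints in complex I, 0.52 and 0.55 in complex II, 2.56 and 2.57 in complex IV, and 1.64 and 1.65 in complex V. In complex III it was 0.87 in RNA and 0.45 in footprints. The footprint spread was the larger in 1 of 24 pools in complex I, 14 in II, 0 in III, 13 in IV and 11 in V. The difference in complex III rested on Uqcrq, since without it the spread was 0.51 in RNA and 0.47 in footprints. Scarce forms set much of the other values. Without Ndufa4l2 complex I had 0.67 and 0.66, without Cox6b2 and Cox7a1 complex IV had 1.07 and 1.51, and without Atp5s complex V had 0.88 in both assays. These members were left out after the values had been seen. As interquartile ranges the spreads of complex V were 0.64 in RNA and 1.06 in footprints, and those of complex II were 0.49 and 0.38, the reverse of their order as SDs.

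Daily rhythms of the members were mostly shallow. A 24-h cosine curve was fitted to each gene with limma, and a gene was called at a Benjamini-Hochberg adjusted p under 0.05 over all 11863 genes. In RNA 32 of 77 members (41.6%) had a 24-h component, against 48.6% of all genes, and 3 had a fitted peak-to-trough fold of at least 1.5, against 10.2% of all genes. In footprints 14 members (18.2%) had a component, against 30.9% of all genes, and 1 reached 1.5-fold, against 7.58%. In TE 18 members (23.4%) had a component, against 17.1% of all genes, and 1 reached 1.5-fold, against 3.74%. Without ZT4 replicate 2 the TE count was 9 (11.7%) against 15.5% of all genes, so that the order of the shares was not stable. It also turned in an F test among the 12 timepoints (0% against 0.851%). The median fold of the 32 members called in RNA was 1.21, against 1.31 for all called genes. By complex, the RNA calls were 11 of 37, 3 of 4, 4 of 8, 7 of 12 and 7 of 16 for I to V, and the footprint calls were 7, 1, 0, 2 and 4. In complex III, Uqcr11 and Uqcrh had an unadjusted p under 0.05 in footprints. With replicate 1 left out, 1 member was called in RNA against 10.1% of all genes, and 0 in footprints against 3.88%. With replicate 2 left out, 21 members (27.3%) were called in RNA against 34.9%, and 8 (10.4%) in footprints against 17.5%.

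Most members called in RNA peaked in the dark phase. The fitted peak lay between ZT12 and ZT24 for 28 of 32 (87.5%), with a median of ZT18.5, against 46.7% of all called genes and 69.4% of the 278 called other genes of up to 450 nt. Of the 28 called cytosolic ribosomal protein genes 24 (85.7%) peaked in that span too. The 4 that peaked in the light were Sdha, Uqcrc1, Uqcrq and Ndufv3. The median member deviated from its own mean by -0.16 to 0.14 (log2) over the 24 RNA libraries, with the highest timepoint mean at ZT20 (0.14) and the lowest at ZT8 (-0.08). The 2 ZT10 libraries differed by 0.23, against a median gap of 0.04 between replicates. Other genes of up to 450 nt ranged from -0.10 to 0.13 and also had their highest mean at ZT20 (0.11), whereas longer genes ranged from -0.02 to 0.03. Assembly factors and cytosolic and mitochondrial ribosomal protein genes also had their highest median at ZT20 (0.10, 0.12 and 0.11). Mitochondrially encoded genes did too (0.45), but citric acid cycle enzymes had theirs at ZT2 (0.08). Only 1 of 6 called citric acid cycle enzymes peaked between ZT12 and ZT24, and 1 of 8 called regulators of mitochondrial biogenesis. In RNA the summed proximal tubule markers were lowest in a ZT8 library and highest in a ZT20 library (43873 and 71354 RPKM). In footprints their sum was lowest at ZT16 and highest at ZT18. Thick ascending limb markers were lowest at ZT10 and highest at ZT18 in RNA, and at ZT6 and ZT16 in footprints. The proximal tubule sum adds the raw RPKM of 7 markers, so the most abundant of them weigh most and the others may differ. The libraries of ZT18 to ZT22 were the shallower ones given above. The part of depth, coding length and these markers in the dark-phase peak was not tested. In footprints the median member ranged from -0.09 to 0.11, and 11 of 14 called members peaked between ZT12 and ZT24 (78.6%). The share was 43.9% of all called genes and 45.1% of the 175 called other genes of up to 450 nt. Of the called cytosolic ribosomal protein genes 50 of 51 peaked in that span, and of the mitochondrial ones 8 of 17.

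**Figure D2:**
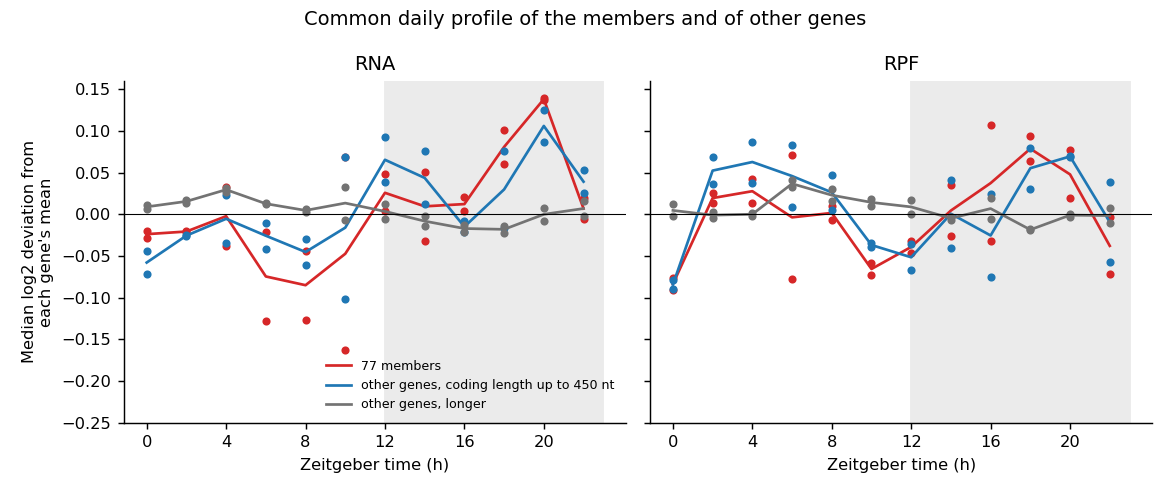
Median log2 deviation from the gene's own mean is plotted against zeitgeber time in hours for the members and for other genes grouped by coding length, with a point per pool, a line through timepoint means and grey for the dark phase. In RNA the members and the other short genes both have their highest timepoint mean at ZT20, while longer genes stay between -0.02 and 0.03.

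**Figure D3:**
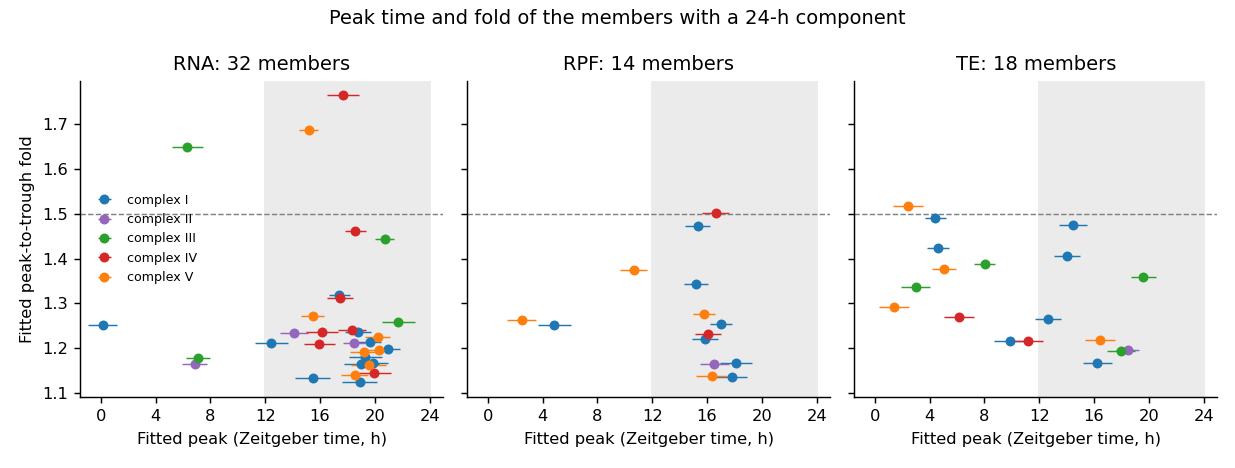
Fitted peak-to-trough fold is plotted against fitted peak time in hours (bars, SE) for the members with a 24-h component in RNA (32), footprints (14) and TE (18), coloured by complex, with grey for the dark phase and a dashed line at 1.5-fold. The RNA peaks gather between ZT12 and ZT24, where 28 of 32 lie, whereas 8 of 18 TE peaks do.

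Atp5g2 had the smallest adjusted p of the members in RNA. It gave 113, 200 and 286 RPKM as the lowest, median and highest of 24 libraries, with timepoint means from 126 RPKM at ZT0 to 248 RPKM at ZT14. The fitted fold was 1.69 (log2 0.76 ± 0.14, SE, adjusted p = 0.0003, limma) with a peak at ZT15.2 ± 0.7 h. The libraries of ZT12 to ZT22 held 196 to 273 RPKM, those of ZT0 to ZT8 held 113 to 183 RPKM, and those of ZT10 gave 134 and 286 RPKM. This split of the day was not planned and is no support beyond the fit. Atp5g1, with 427, 523 and 664 RPKM, had a fitted fold of 1.27 (log2 0.35 ± 0.08, adjusted p = 0.0022, limma) and a peak at ZT15.5. Atp5g3, with 963, 1091 and 1304 RPKM, had a fold of 1.07 and did not pass the test (adjusted p = 0.47, limma). The share of Atp5g2 in the c-subunit RNA accordingly ran from 7.21% at ZT0 to 13.2% at ZT14, and that of Atp5g3 from 66.9% at ZT2 to 53.2% at ZT14. In footprints the share of Atp5g3 lay between 74.5% and 78.9% over the timepoint means. That of Atp5g2 lay between 7.06% at ZT12 and 9.61% at ZT10. The footprints of Atp5g3 had a 24-h component, whereas those of Atp5g1 and Atp5g2 were not called. Footprints of Atp5g2 ranged from 272 to 425 RPKM. Its TE was 1.15, 1.96 and 2.88, with a fitted fold of 1.52 (log2 0.60 ± 0.17, adjusted p = 0.044, limma) and a peak at ZT2.4. This was the only TE rhythm of at least 1.5-fold among the members. It missed the threshold without ZT4 replicate 2 (adjusted p = 0.077, limma) or ZT10 replicate 2 (0.056) and with a 12-h harmonic (0.11). It also missed it in an F test among timepoints (adjusted p = 0.17, limma) and without the pool term (0.055). The TE fold was 1.55 without replicate 1 and 1.51 without replicate 2. With 1 pool per timepoint the TE test called almost no gene, so those fits have no bearing on the call. The TE of Atp5g1 peaked at ZT1.4 and that of Atp5g3 at ZT16.4.

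**Figure D4:**
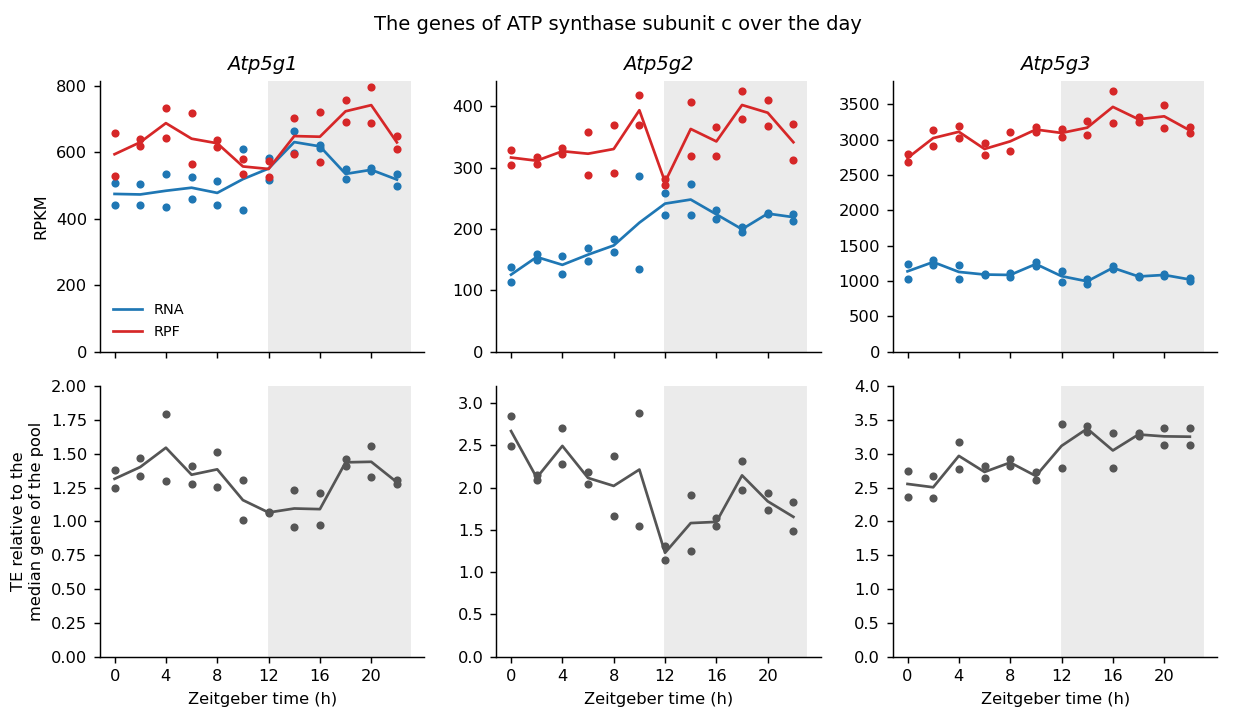
RNA, footprint RPKM and TE of Atp5g1, Atp5g2 and Atp5g3 are plotted against zeitgeber time in hours, with a point for each of the 2 pools, a line through the timepoint means and grey for the dark phase. Mean Atp5g2 RNA goes from 126 RPKM at ZT0 to 248 RPKM at ZT14, and its mean TE is highest at ZT0.

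The other RNA rhythms of at least 1.5-fold were weaker. Uqcrq had a fold of 1.65 (log2 0.72 ± 0.22, adjusted p = 0.024, limma) with a peak at ZT6.3, and timepoint means from 86.4 RPKM at ZT18 to 219 RPKM at ZT2. Its ZT10 libraries gave 142 and 294 RPKM, its ZT12 libraries 115 and 223 RPKM, and the call was lost without replicate 1 (adjusted p = 0.19, limma) or replicate 2 (0.06). Cox6b2 (chr7:4751792-4753094) had a fold of 1.76 (log2 0.82 ± 0.25, adjusted p = 0.027, limma) and a peak at ZT17.7. Its values lay between 2.06 and 7.18 RPKM and its ZT12 libraries gave 7.15 and 2.97 RPKM. The call was lost without replicate 1 (adjusted p = 0.052, limma), without replicate 2 (0.42), without ZT4 replicate 2 (0.061), with a 12-h harmonic (0.054) and in an F test among timepoints (0.14).

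Cox7c, a small membrane subunit of complex IV (chr13:86044816-86046904), was the 1 member with a footprint rhythm of at least 1.5-fold. It had 911, 1169 and 1828 RPKM in RNA, with both ZT18 libraries, at 1816 and 1828 RPKM, above all the others. Its RNA fold was 1.46 (log2 0.55 ± 0.11, adjusted p = 0.0008, limma) with a peak at ZT18.6. Footprints gave 1120, 1851 and 2834 RPKM, with a fold of 1.503 (log2 0.59 ± 0.15, adjusted p = 0.014, limma) and a peak at ZT16.6. The fold was 1.38 after quantile normalisation and 1.46 without ZT4 replicate 2. The call itself was lost without replicate 1 (adjusted p = 0.096, limma), without replicate 2 (0.080), with a 12-h harmonic (0.064) and in an F test among timepoints (0.32).

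Uqcrb, the ubiquinone-binding protein of complex III (chr13:66900617-66905378), had 476, 651 and 848 RPKM in RNA, with means from 485 RPKM at ZT8 to 839 RPKM at ZT20. The fold was 1.44 (log2 0.53 ± 0.10, adjusted p = 0.0003, limma), and the call was lost without replicate 1 (adjusted p = 0.20, limma). Its footprints, at 725, 899 and 1094 RPKM, had a fold of 1.08 and did not pass the test (adjusted p = 0.45, limma). TE accordingly ran from 1.14 at ZT20 to 1.87 at ZT8, with a fold of 1.39 (log2 0.47 ± 0.09, adjusted p = 0.0062, limma), the smallest adjusted p of the members in TE. That call was lost in an F test among timepoints (adjusted p = 0.093, limma), which called 0.851% of all genes in TE. The TE fold was 1.42 without replicate 1 and 1.40 without replicate 2. With 1 pool per timepoint the TE test called almost no gene, so those fits have no bearing on the call. Ndufa12, an accessory subunit of complex I, was similar, with 243, 302 and 403 RPKM in RNA, a fold of 1.32 and a peak at ZT17.4, and a TE fold of 1.49 with a peak at ZT4.4. Atp5k was called in all 3 readouts, with the RNA peak at ZT20.2, the footprint peak at ZT2.5 and the TE peak at ZT5.1. Since TE is made from the same RNA values, its phase is not independent of the RNA phase.

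In Ndufa1, Ndufb3, Ndufc1, Cox5a and Ndufa3 the footprints had a component and the RNA did not pass. Of these, Ndufc1 and Cox5a had no TE component, so their footprints were not shown to differ from RNA. Ndufa1 had 893, 1315 and 2640 RPKM in footprints, with a fold of 1.47 (log2 0.56 ± 0.13, adjusted p = 0.0059, limma) and a peak at ZT15.3. Its ZT16 libraries gave 1675 and 2640 RPKM, the latter above all other libraries. Ndufb3, another accessory subunit of complex I, had 470, 701 and 917 RPKM and a fold of 1.34 with a peak at ZT15.2. Ndufc1, a further subunit of complex I, with 373, 460 and 516 RPKM and a fold of 1.254, had the smallest adjusted p in footprints (0.0024, limma). Cox5a, with 899, 1031 and 1476 RPKM, had a fold of 1.23 and a peak at ZT16.1. Ndufa3 peaked in the light, at ZT4.8 in footprints and ZT4.6 in TE, where its fold was 1.42. Atp5c1 was called in RNA and footprints, with a fold of 1.28 and a peak at ZT15.8 in footprints. Sdhc was too, with 350, 425 and 496 RPKM in RNA, a fold of 1.21 and a peak at ZT18.5. Sdha, called in RNA and TE but not in footprints, had an RNA peak at ZT6.9 and a TE peak at ZT18.4 at a fold of 1.20.

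**Figure D5:**
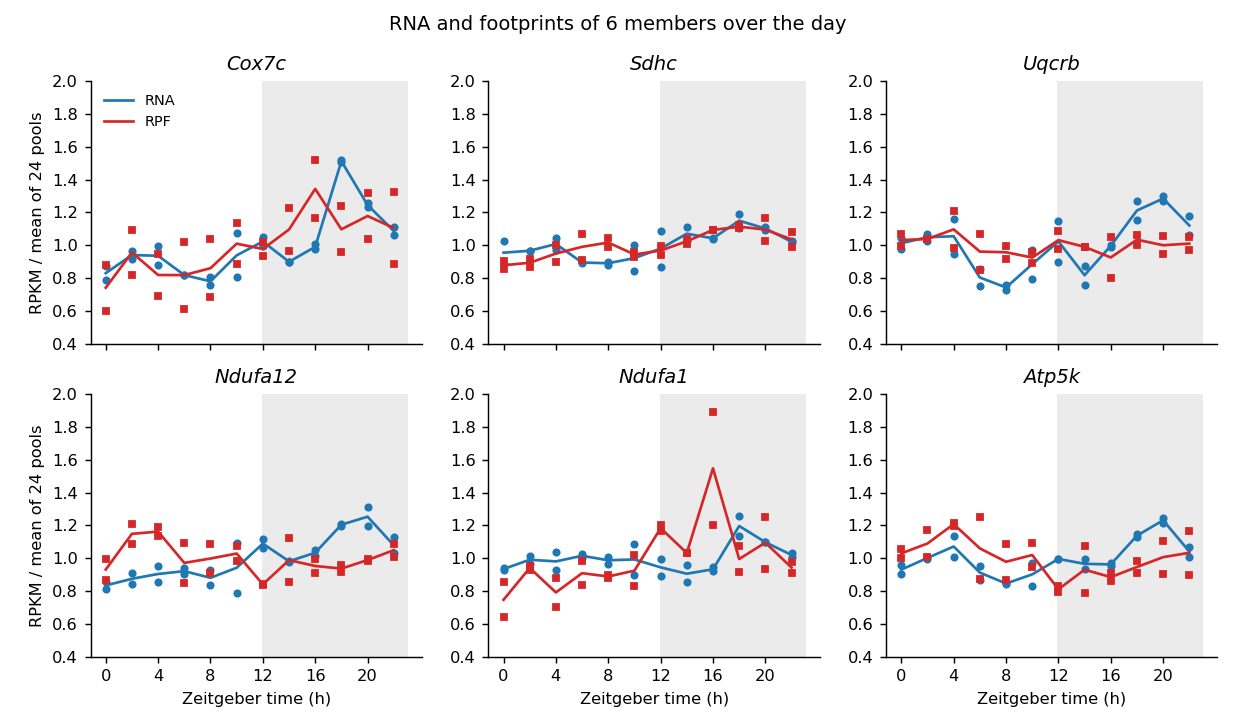
RNA and footprint RPKM of Cox7c, Sdhc, Uqcrb, Ndufa12, Ndufa1 and Atp5k, each divided by its mean over 24 pools, are plotted against zeitgeber time in hours, with a point per pool, a line through timepoint means and grey for the dark phase. Mean Uqcrb RNA is highest at ZT20 (839 RPKM), and mean Ndufa1 footprints are highest at ZT16.

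In all, 44 members had a component in at least 1 readout and 33 in none. Of the 32 called in RNA, 5 were also called in footprints, whereas 2445 of all 5761 genes called in RNA were. Of the 32, 10 were also called in TE, and 26 had a smaller fitted fold in footprints than in RNA. These 32 were picked by their RNA test, which favours a larger RNA fold. Over all 77 members the footprint fold was the smaller in 45. The other counts of this paragraph were not taken over all genes. Being called in 1 readout and not in another does not show a difference between them, which the TE test addresses.

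Further genes of the pathway were counted from lists. For comparison, 48.6%, 30.9% and 17.1% of all tested genes had a component in RNA, footprints and TE. Of all tested genes 20.6% stood above and 26.0% below the TE limits. Counts near these shares are no trait of a list. Of 7 subunits and carriers that the symbols missed, 5 had an RNA component, 2 a footprint component and 5 a TE above the limit. Among them Cyc1, cytochrome c1 of complex III, had an RNA fold of 1.31 with a peak at ZT9.5, and Cycs, cytochrome c, a fold of 1.29 with a peak at ZT20.5. Of 48 assembly factors, 21, 8 and 8 had a component in RNA, footprints and TE, and 15 stood above and 3 below the TE limits. Of 14 enzymes of the citric acid cycle, which feeds complexes I and II, the counts were 6, 3 and 3, with 9 above the TE limit and a median TE of 1.71. Of 11 regulators of mitochondrial biogenesis, 8, 1 and 1 had a component and 2 stood below the TE limit. The 12 mitochondrially encoded subunits that were listed in both assays are made on mitochondrial ribosomes. They had a median of 9229 RPKM in RNA and 1153 RPKM in footprints, and 11 of them stood below the TE limit. How well footprints of mitochondrial ribosomes were captured was not tested, so this ratio may not be comparable with the TE of the other genes. In RNA 9 of the 12 had a component, for example mt-Co3 with a fold of 1.47 at ZT18.8. All of these peaked between ZT12 and ZT24, against 46.7% of all called genes. Of 74 mitochondrial ribosomal proteins, 32, 17 and 14 had a component, with a median TE of 1.33. Of 83 cytosolic ribosomal proteins, 28, 51 and 15 did, with 48 below the TE limit and a median TE of 0.604.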

How the data were processed

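RNA-seq and RPF-seq were made from the same 24 lysate pools. The deposited values are RPKM per gene over coding sequences, which the authors made with cutadapt, Bowtie2 2.2.1, TopHat2 2.0.11 (GRCm38.p2) and Cufflinks 2.2.1 and scaled by upper quantiles with edgeR. How reads matching several loci were handled is not given in the sources used here, and 4 members (Atp5c1, Atp5k, Atp5l, Uqcrh) have processed pseudogenes named after them. Read totals were recovered from the steps between low RPKM values, of which 80.5% to 84.7% under 100 reads were whole within 0.05 reads. Genes with a median of at least 0.5 RPKM in both assays were kept. Values were taken as log2(RPKM + 0.1), so folds of low genes are understated. A 24-h cosine and sine were fitted with limma 3.58.1 (R 4.3.3), with Benjamini-Hochberg adjustment over all genes, a threshold of 0.05 and a fold limit of 1.5. TE was log2 RPF minus log2 RNA per pool. For TE levels the median gene of the pool was subtracted. The 24-h fits of TE were made without that step, and with median-centred libraries they called 17 members (22.1%, all genes 17.0%). The method was tested on simulated data. Pools came from separate animals.

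Named were members past both limits, the highest and lowest footprints and TE of each complex, alternative forms, the 5 smallest adjusted p per readout, and core subunits. Other genes named were chosen after their values were seen. Pseudocounts, minimum levels, scalings, thresholds, further curves, the replicate block and omitted libraries were varied. The values of 1 member are not reported here. Members and lists were chosen with earlier results of these data known. Markers of distal convoluted tubule (295 to 435 RPKM summed in RNA), collecting duct (195 to 333), podocytes (59.3 to 102), endothelium (129 to 170), immune cells (197 to 352) and fat (100.3 to 159) were also summed.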

Additional observations from a re-analysis of the deposited data

Results flagged for a closer look

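TE is the difference between assays in the same pool, so a 24-h component of TE is a test that the daily course of footprints and RNA differed (limma, adjusted p under 0.05 over all genes). It was found for 18 members, of which 17 are given here with the fitted log2 peak-to-trough of TE. In complex I these were Ndufa12 with 0.58, Ndufa1 with 0.56, Ndufa3 with 0.51, Ndufb3 with 0.49, Ndufb6 with 0.34 and Ndufb9 with 0.28. In complex II it was Sdha with 0.26. In complex III they were Uqcrb with 0.47, Uqcr11 with 0.44, Uqcr10 with 0.42 and Uqcrc1 with 0.25. In complex IV they were Cox7a2 with 0.35 and Cox6c with 0.28. In complex V they were Atp5g2 with 0.60, Atp5k with 0.46, Atp5g1 with 0.37 and Atp5g3 with 0.29. Without ZT4 replicate 2 the count over all members was 9 (11.7%), below the share of all genes (15.5%), whereas in all pools it was 23.4% against 17.1%. With 1 pool per timepoint the test called 0 of 11863 genes without replicate 1 and 2 without replicate 2, so it has no bearing on these members.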

How the results depend on the processing

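The main counts of members were 32 in RNA, 14 in footprints and 18 in TE, 3, 1 and 1 at 1.5-fold, and 46 with a TE above the limit. At an adjusted p of 0.01 they were 16, 4 and 4 (all genes 31.6%, 17.1% and 4.72%). At 1.5-fold they were then 1, 0 and 0 (all genes 1069, 703 and 215 of 11863). Quantile normalisation gave 21 in RNA (27.3%, all genes 46.6%), and 0 in footprints and 2 in TE at 1.5-fold (all genes 858 and 427). An F test among the 12 timepoints gave 16, 4 and 0 (20.8%, 5.19% and 0%, all genes 31.0%, 12.8% and 0.851%). It gave 6 in RNA and 0 in TE at 1.5-fold (all genes 2291 and 98). A choice by AIC gave 54, 39 and 50 (70.1%, 50.6% and 64.9%, all genes 70.9%, 59.8% and 53.6%), with 4 in TE at 1.5-fold (all genes 727). A 12-h harmonic gave 10 in TE (13.0%, all genes 11.4%), and 2 and 3 at 1.5-fold in footprints and TE (all genes 1258 and 616). Without the pool term TE had 9 (11.7%, all genes 8.13%) and 0 at 1.5-fold (all genes 297). A 2-fold limit gave 17 above (all genes 727 of 11863). With libraries left out the counts ran from 1 to 37 in RNA, 0 to 15 in footprints and 0 to 17 in TE, 1 to 3, 0 to 1 and 0 to 1 at 1.5-fold, and 43 to 47 above. The ZT10 omissions and the members left out of the spreads were chosen after seeing the data. The replicate block gave 32, 14 and 16 (all genes 48.7%, 31.0% and 18.2%). It gave 3, 1 and 1 at 1.5-fold (all genes 1214, 895 and 455), and 46 above (all genes 2441). Same-numbered pools correlated by 0.029 in RNA, 0.020 in footprints and 0.036 in TE on average. Of 66 pairs of timepoints 13, 10 and 12 were above 0.1, with highest values of 0.48, 0.19 and 0.34. A low average cannot exclude a link between same-numbered pools, and the main fits did not use the numbers. As interquartile ranges the spreads in RNA, footprints and TE were 0.76, 0.74 and 0.54 in complex I, 1.86, 1.98 and 0.75 in IV, and 0.64, 1.06 and 0.62 in V. They were 0.38 for footprints of II, and 0.59 in RNA and 0.40 in TE of III. Leaving out the members named above gave 0.67 and 0.66 in I, 0.51 in RNA and 0.29 in TE of III, 1.07 and 1.51 in IV, and 0.88 and 0.88 in V. The order of the TE shares of members and all genes turned without ZT4 replicate 2 (11.7% and 15.5%) and in the F test (0% and 0.851%). For the complex II spreads it turned as interquartile ranges (0.49 in RNA, 0.38 in footprints). The complex V spreads, nearly equal in RNA and footprints, turned without replicate 2 (1.646 and 1.64) and without Atp5s (0.883 and 0.878). Those of complex IV, also nearly equal, turned with a pseudocount of 0.01 (2.57 and 2.569). The 6 reads of Ndufa4l2 limit its values, and with 2 pools per timepoint shallow rhythms may be missed.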
